A study of Homo sapiens with 12 samples.

Results

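Genes of the ATF4 pathway and of the unfolded protein response (UPR) were examined in 2 liver cancer cell lines after knockdown of the long noncoding RNA FASRL. The members were 54 named genes, and 35 of them were among the 8842 genes listed in the expression tables. RNA-seq of polyadenylated RNA was carried out in HepG2 and in LM3 cells, each transfected with siRNA against FASRL (siFASRL) or with the control siRNA (siNC) and collected 48 h later by the methods of the study. Each of the 4 groups had 3 replicates, 12 libraries in all. The level of FASRL itself was not analysed here, so the labels of the libraries were taken as given.

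Proteins of the secretory pathway fold in the endoplasmic reticulum (ER), and a load of unfolded protein there activates the sensors IRE1, PERK and ATF6. IRE1 splices XBP1 mRNA, and XBP1 and ATF6 then raise ER chaperones, folding enzymes and the machinery of ER-associated degradation (ERAD), while PERK phosphorylates the translation factor eIF2. ATF4, which is translated preferentially when eIF2 is phosphorylated, is shared with the amino acid sensor GCN2 and turns on genes of amino acid supply and stress signalling, so that ATF4 targets and ER chaperones can change separately. The comparison of siFASRL with siNC in each line asked how ATF4 targets moved beside ER chaperones and ERAD genes.

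The 19 members that were not on the list, among them CHAC1, DDIT4, CEBPG, HERPUD1, DNAJB9, CANX, EIF2AK3 (which encodes PERK) and ERN1 (which encodes IRE1), were not analysed here. The values were normalized expression per gene with 2 decimals. Sums over the list ran from 316534 to 355094 per library, but the number of reads behind a value is unknown. The sums were higher after siFASRL, 347211 to 355094 against 333193 to 338379 in HepG2. In LM3 they were 346884 to 348573 after siFASRL and 316534 to 321859 after siNC. Within groups, the log2 values of replicates had correlations from 0.995 to 0.999. LM3 siNC replicate 1 stood furthest from its group, with an SD of 0.196 for the log2 difference from the other replicates, against at most 0.149 in any other library. The sources used here do not say whether the replicates came from separate cultures, so p-values measure the spread between these libraries, which may be technical. In HepG2, 6 of 6367 genes whose mean reached 5 (0.0942%) had a log2 fold change between -0.18 and -0.04, against 544 of 5937 (9.16%) in LM3. The list thus held almost no genes with a HepG2 effect in that range, and its percentages need not be those of all expressed genes.

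The lines differed in hepatocyte genes. In HepG2 the plasma protein gene ALB read 233, 231 and 241 after siFASRL and 851, 805 and 789.8 after siNC. In LM3 none of ALB, AFP, TF, TTR, APOA1, APOB and FGA exceeded 0.62 in any library, so these defining markers of hepatocytes were absent or nearly so. SERPINA1 in LM3 read 0.37, 0.03 and 0.03 after siFASRL and 0.08, 1.73 and 1.26 after siNC. The sum of the hepatocyte markers in LM3 was 6.74 to 8.07 after siFASRL and 15.35 to 18.5 after siNC, most of it HNF4A. ALB in LM3 read 0.06, 0.62 and 0.40 in the siNC replicates and 0.19, 0 and 0 in the siFASRL replicates. The hepatocyte transcription factor HNF4A was present in both lines, with 6.32, 7.64 and 6.17 after siFASRL and 14.4, 14.4 and 14.2 after siNC in LM3. In HepG2 the 10 listed hepatocyte markers of 11 summed to 1766 to 1864 after siFASRL and 3719 to 4112 after siNC, SERPINA1 being the most abundant. All 10 were called lower after siFASRL by the rule given below, against 44.3% of the genes tested. Of the fibroblast markers 4 of 5 were listed, and their sum in HepG2 was 29.8 to 32.6 after siFASRL and 66.1 to 68.2 after siNC, with COL3A1 the most abundant after siNC and DCN at 1.01 or below. In LM3 that sum was 2.84 to 3.29 after siFASRL and 9.26 to 11.3 after siNC, nearly all of it COL1A1. The sole listed leukocyte marker, LYZ, read 42.7, 45.8 and 49.9 against 84.5, 86.4 and 77.2 in HepG2 and at most 1.73 in LM3, and VWF, the sole endothelial one, did not exceed 0.35. These marker sums moved with siFASRL in the same libraries as the members, and their part in the results was not tested.

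Most listed members were lower after siFASRL in both lines, while ATF4 and a few others were higher. A gene was called with a limma adjusted p under 0.05 on log2(value + 1), and fold changes are on that scale, so the changes of weakly expressed genes come out too small. In HepG2, 25 of 35 members were lower (71.4%, against 44.3% of the 8144 genes tested) and 8 were higher (22.9%, against 44.8%). Their median log2 fold change was -0.47, against 0.10 for all genes. In LM3, 24 of 34 tested members were lower (70.6%, against 43.5% of 7483 genes) and 7 were higher (20.6%, against 33.9%), with a median of -0.55 against -0.06. Without LM3 siNC replicate 1 these counts were 25 and 7, and all genes had 3201 lower and 2739 higher of 7243 tested. The LM3 background depended on scaling, since all genes had 2536 higher and 3254 lower here but 3139 and 2755 with median-of-ratios scaling and 2813 and 2582 with quantile normalization. In HepG2 the background depended on centring, with 3650 higher and 3607 lower here. These became 2824 and 3617 with the median of all genes set to 0, and 4427 and 3558 when centred on the near-empty range. With the stricter threshold, a log2 fold change of at least 1 in size as well, HepG2 had 2 members higher (all genes 3.61%) and 2 lower (6.79%), and the 2 higher became 1 with the median of all genes set to 0. LM3 had 2 members higher (all genes 1.42%) and 5 lower (6.20%) at that threshold, and the 5 became 3 with quantile normalization and 2 with median-of-ratios scaling. In bulk RNA, fewer cells making a transcript and less of it per cell cannot be told apart.

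**Figure D1:**
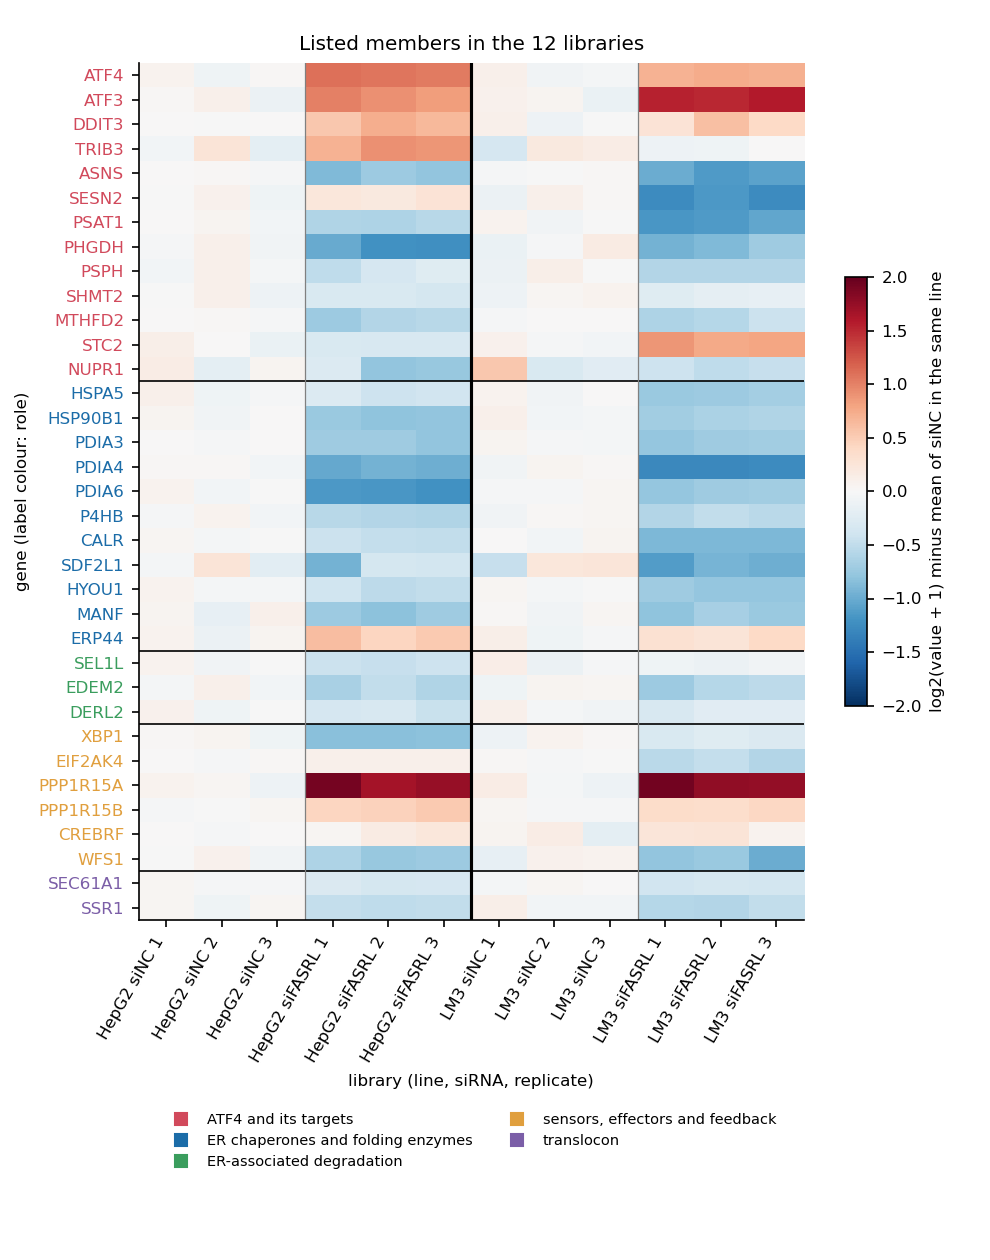
Every listed member (rows, label colour by role) in every library (columns), as log2(value + 1) minus the mean of the 3 siNC libraries of the same line. Red is higher and blue lower than siNC. ATF4, ATF3, DDIT3, PPP1R15A, PPP1R15B and ERP44 are red in the siFASRL columns of both lines, and the ER chaperones other than ERP44 are blue in both.

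The members did not, as a family, move in opposite directions in the lines. Of 34 members tested in both, 22 were lower in both (64.7%, against 36.0% of 7349 genes) and 6 were higher in both (17.6%, against 29.6%). Called in opposite directions were 2 members, SESN2 and STC2 (5.88%, against 5.31% of all genes). This count depended on the setting, since SESN2 was not called in HepG2 with the median of all genes set to 0 (adjusted p = 0.0803). TRIB3, higher in HepG2, was called lower in LM3 without siNC replicate 1 (-0.23, adjusted p = 0.00236). EIF2AK4, lower in LM3, was called higher in HepG2 with quantile normalization (0.13, adjusted p = 0.0399). The 6 members higher in both lines were ATF4, ATF3, DDIT3, ERP44, PPP1R15A and PPP1R15B.

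Among ATF4 and its targets, 13 of 17 were listed, with 5 higher and 8 lower in HepG2 (median -0.32) and 4 higher, 7 lower and 1 not called of 12 tested in LM3 (median -0.37). The HepG2 median became -0.42 with the median of all genes set to 0 and -0.21 when centred on the near-empty range. The LM3 median became -0.47 with no filter and -0.20 with a filter at 5. For all genes tested these shares were 44.8% higher and 44.3% lower in HepG2, and 33.9% and 43.5% in LM3. ATF4 (gene ID 468, chr22:39520559-39522686), the factor at the head of the pathway, read 287, 281 and 276 in the HepG2 libraries with siFASRL and 140.3, 127 and 136 in those with siNC. In LM3 its values were 214, 222 and 218 with siFASRL and 142, 127 and 129 with siNC. The siNC levels of the lines were alike, and every siFASRL library lay above every siNC library. In HepG2 ATF4 changed by 1.06 ± 0.0585 (adjusted p = 2.72e-07) on the log2 scale, and the LM3 change was 0.72 ± 0.0572 (adjusted p = 8.18e-06) (SE, n = 3 per group, limma here and for each adjusted p).

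ATF3 (gene ID 467, chr1:212565407-212620777), a stress-induced bZIP factor that ATF4 can activate, read 10.1, 9.40 and 8.89 after siFASRL and 4.64, 4.92 and 4.11 after siNC in HepG2. In LM3 its values were 29.9, 29.4 and 30.9 and 10.3, 10.1 and 8.71. The groups did not overlap, and ATF3 after siFASRL in HepG2 only reached the level it had in LM3 with siNC. The log2 change was 0.91 ± 0.072 (adjusted p = 2.25e-06) for HepG2 and 1.54 ± 0.067 (adjusted p = 4.67e-07) for LM3. DDIT3 (gene ID 1649, chr12:57516588-57520517), which encodes CHOP, a factor of the later and pro-apoptotic phase of ER stress, read 14.1, 16.1 and 15.4 against 9.49, 9.32 and 9.42 in HepG2. In LM3 it read 7.34, 9.54 and 8.07 against 6.41, 5.46 and 5.89, and the groups were apart there too. DDIT3 changed by 0.64 ± 0.0618 (adjusted p = 8.63e-06) and 0.42 ± 0.091 (adjusted p = 0.00257) on the log2 scale in HepG2 and LM3.

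TRIB3 (gene ID 57761, chr20:380760-397559), a pseudokinase induced by ATF4 and CHOP that restrains both, read 25.6, 30.2 and 29.5 after siFASRL and 14.8, 18.6 and 13.4 after siNC in HepG2, a log2 change of 0.83 ± 0.11 (adjusted p = 6.75e-05). In LM3 it read 9.72, 9.86 and 10.7 against 8.13, 12.2 and 11.8, and the groups overlapped only through the low siNC replicate 1 (-0.06 ± 0.129, adjusted p = 0.672). Without that library the LM3 change was -0.23 (adjusted p = 0.00236). SESN2 (gene ID 83667, chr1:28259518-28282491), a leucine sensor that holds back mTORC1, read 9.08, 8.91 and 9.43 against 7.61, 8.20 and 7.11 in HepG2 and 1.95, 2.2 and 1.94 against 5.51, 6.55 and 6.15 in LM3. It was slightly higher in HepG2 (0.23 ± 0.0625, adjusted p = 0.00567) and fell to 33.4% of its siNC mean in LM3 (-1.22 ± 0.0683, adjusted p = 1.44e-06). The HepG2 call of SESN2 was lost when the median of all genes was set to 0 (0.13, adjusted p = 0.0803). STC2 (gene ID 8614, chr5:173314723-173328414), a secreted glycoprotein induced in ER stress, read 15.3, 15.04 and 15.01 against 20.8, 19.2 and 17.2 in HepG2 and 16.3, 14.8 and 15.1 against 8.92, 8.21 and 8 in LM3. It moved the other way, down in HepG2 (-0.32 ± 0.0706, adjusted p = 0.00196) and up in LM3 (0.81 ± 0.0602, adjusted p = 5.67e-06), and no groups overlapped. The siFASRL libraries of the lines ended at nearly the same STC2 values.

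**Figure D2:**
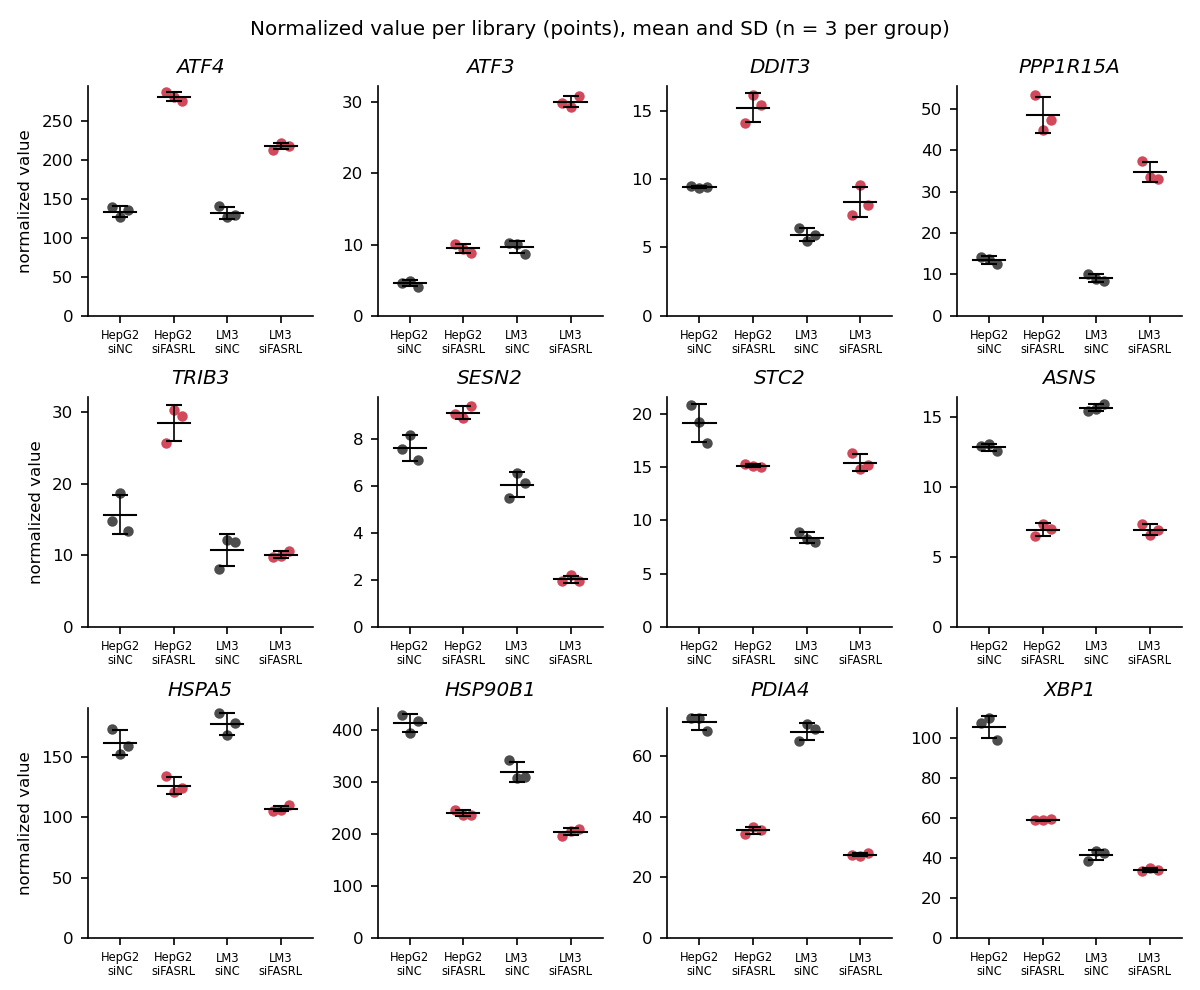
Normalized value (vertical axis, from 0) of 12 members in each library, with points for libraries, wide bars for the group mean and error bars for the SD (n = 3 per group, siFASRL red and siNC grey). ATF4, ATF3, DDIT3 and PPP1R15A are higher after siFASRL in both lines, ASNS, HSPA5, HSP90B1, PDIA4 and XBP1 are lower in both, and SESN2 and STC2 change in opposite directions.

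Listed members included 6 enzymes of asparagine, serine and folate metabolism, a group formed after the values were seen. All 6 were lower in both lines, which did not hold for every enzyme that ATF4 is known to induce. Of the 7349 genes tested in both lines 36.0% were lower in both, but a group formed in this way cannot be tested against that share. Outside the members, the mitochondrial folate enzyme MTHFD1L was higher in both lines (0.80 and 0.70, adjusted p = 3.72e-06 and 4.09e-05), CTH was called in opposite directions, and SHMT1, GPT2, CBS and ALDH18A1 were lower in both. Asparagine synthetase, ASNS (gene ID 440, chr7:97851677-97928441), read 6.5, 7.40 and 6.99 after siFASRL and 12.9, 13.1 and 12.6 after siNC in HepG2, and 7.35, 6.61 and 6.93 against 15.5, 15.6 and 15.99 in LM3. The siFASRL means coincided at 6.96 in both lines, well below each siNC library, with log2 changes of -0.80 ± 0.0598 (adjusted p = 1.62e-06) and -1.07 ± 0.0532 (adjusted p = 8.60e-07). PSAT1 (gene ID 29968, chr9:78297125-78330093), the aminotransferase of serine synthesis, read 34.04, 33.8 and 35.3 against 52.6, 54.1 and 50.2 in HepG2 and 20.3, 20.8 and 22.1 against 48.98, 44.4 and 46.2 in LM3. It fell in both lines, by 0.59 and 1.11 on the log2 scale (adjusted p = 6.85e-06 and 1.14e-06). PHGDH (gene ID 26227, chr1:119711934-119744215), which catalyses the entry step of serine synthesis, read 11.8, 10.1 and 10.04 against 24.3, 26.5 and 23.4 in HepG2 but only 1.03, 1.11 and 1.38 against 2.56, 2.84 and 3.37 in LM3. PHGDH was thus far lower in LM3 than in HepG2 under either siRNA, and it was lower after siFASRL in each, -1.15 ± 0.0753 (adjusted p = 7.34e-07) and -0.85 ± 0.0889 (adjusted p = 3.78e-05). The serine phosphatase PSPH and the mitochondrial folate enzymes SHMT2 and MTHFD2 were also lower in both lines, with log2 changes from -0.62 to -0.32 in HepG2 and from -0.59 to -0.20 in LM3. SHMT2 in LM3 was the weakest of these calls (adjusted p = 0.0155) and was lost without siFASRL replicate 1, siNC replicate 2 or siNC replicate 3 (adjusted p = 0.0594, 0.0525 and 0.0589). It was also lost with median-of-ratios scaling (-0.08, adjusted p = 0.25) and with the median of all genes set to 0 (-0.13, adjusted p = 0.0676). The 6 enzymes had median changes of -0.61 and -0.72. NUPR1, a small stress-induced chromatin protein, was lower in HepG2 (20.1, 13.8 and 14.1 against 27.4, 21.2 and 25.5, -0.61 ± 0.138, adjusted p = 0.00214) and too low in LM3 to be tested there, where its highest value was 1.64.

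Promoter windows from RefSeq (GRCh38.p14, 250 bases before to 50 after a start) were found for 31 of the 35 listed members. They were searched on both strands for the core of the CEBP-ATF response element bound by ATF4 (TGATGNAA). At least 1 match was present in 2 of 10 ATF4 and target genes with a window, and in 1217 of 27305 genes with a window (4.46%). Of 89 other genes of these pathways with a window, 11 had a match (12.4%). The matches of the ATF4 group lay in ASNS and ATF3, which moved in opposite directions and are shown for that reason. Among all members with a window 3 of 31 had a match (9.68%, against 2.80% of the 7111 listed genes with a window), the other being PPP1R15B, whose match alone also had the narrower letters TGATGCAA. The bases before the start are ASNS at chr7:97872409-97872658, minus strand, and ATF3 at chr1:212565157-212565406, plus strand, 5′ to 3′ on the gene's strand with the match in capitals.
ASNS: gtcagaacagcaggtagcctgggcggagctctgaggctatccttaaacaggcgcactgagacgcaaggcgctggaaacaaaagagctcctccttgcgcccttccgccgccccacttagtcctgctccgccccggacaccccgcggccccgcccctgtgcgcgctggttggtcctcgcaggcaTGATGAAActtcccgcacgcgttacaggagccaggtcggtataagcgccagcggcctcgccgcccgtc
ATF3: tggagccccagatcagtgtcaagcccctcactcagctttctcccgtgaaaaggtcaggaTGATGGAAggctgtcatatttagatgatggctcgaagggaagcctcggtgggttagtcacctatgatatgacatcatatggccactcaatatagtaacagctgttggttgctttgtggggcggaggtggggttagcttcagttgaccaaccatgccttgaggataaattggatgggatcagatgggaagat

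Of 16 named ER chaperones and folding enzymes, 11 were listed. In each line 10 of the 11 were lower (90.9%, against 44.3% of all genes in HepG2 and 43.5% in LM3), and the median change was -0.58 for HepG2 and -0.73 for LM3. HSPA5 (gene ID 3309, chr9:125234853-125241343), which encodes BiP, the main ER chaperone and a repressor of the UPR sensors, read 134, 120.5 and 124 after siFASRL and 173, 153 and 159 after siNC in HepG2. Its LM3 values were 105, 106 and 109.7 against 186, 168 and 178. No groups overlapped, and the fall of HSPA5 was smaller for HepG2, -0.36 ± 0.0677 (adjusted p = 0.000729), than for LM3, -0.72 ± 0.0554 (adjusted p = 6.69e-06). HSP90B1 (gene ID 7184, chr12:103930410-103947926), the ER member of the HSP90 family, read 247, 237 and 237 against 429, 394 and 417 in HepG2 and 197, 206 and 210.3 against 342, 308 and 309 in LM3. Each siFASRL library was below each siNC library, with changes of -0.78 ± 0.0568 (adjusted p = 1.42e-06) and -0.64 ± 0.0599 (adjusted p = 1.97e-05). CALR (gene ID 811, chr19:12938609-12944489), the lectin chaperone calreticulin, read 407, 391 and 388 against 559.8, 535 and 546 in HepG2 and 208, 208 and 208 against 389, 372 and 401 in LM3. The fall was larger for LM3, -0.89 ± 0.0499 (adjusted p = 1.43e-06), than for HepG2, -0.47 ± 0.0535 (adjusted p = 2.56e-05).

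The protein disulfide isomerases included the largest fall of a chaperone in each line. PDIA4 (gene ID 9601, chr7:149003051-149028505) read 34.4, 36.6 and 35.5 after siFASRL and 72.5, 72.7 and 68.4 after siNC in HepG2, and 27.3, 27.2 and 28.01 against 64.9, 70.5 and 68.9 in LM3. PDIA6 (gene ID 10130, chr2:10783391-10837712), which also attenuates IRE1, read 99.3, 98.7 and 95.5 against 232, 214 and 220.0 in HepG2 and 80.7, 84.5 and 85.02 against 137, 137 and 143 in LM3. Every siFASRL library was below every siNC library of its line for both genes. The changes of PDIA4 were -0.98 ± 0.0558 (adjusted p = 3.22e-07) for HepG2 and -1.28 ± 0.0519 (adjusted p = 3.65e-07) for LM3, and those of PDIA6 were -1.17 ± 0.0562 (adjusted p = 1.35e-07) and -0.73 ± 0.0501 (adjusted p = 3.77e-06). SDF2L1 (gene ID 23753, chr22:21642302-21644299), a partner of BiP in its work with co-chaperones, read 9, 13.96 and 13.8 against 17.6, 21.8 and 15.6 in HepG2 and 9.80, 11.3 and 10.8 against 16.1, 26.3 and 26.6 in LM3. It was the most variable chaperone, and LM3 siNC replicate 1 was well below the other siNC libraries. SDF2L1 changed by -0.56 ± 0.161 (adjusted p = 0.00867) for HepG2 and by -1.01 ± 0.169 (adjusted p = 0.000632) for LM3, the latter becoming -1.24 without that library. Its HepG2 change ranged from -0.66 to -0.36 on leaving out 1 library, and was -0.36 without siFASRL replicate 1. The other chaperones that were lower, PDIA3, P4HB, HYOU1 and MANF, had changes from -0.75 to -0.47 in HepG2 and from -0.75 to -0.54 in LM3. The exception was ERP44, which retrieves proteins from the early secretory pathway and was higher for HepG2, 0.53 ± 0.0722 (adjusted p = 8.08e-05), and for LM3, 0.32 ± 0.0666 (adjusted p = 0.00204).

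The windows of these genes were searched for the motifs of the UPR. The ER stress element (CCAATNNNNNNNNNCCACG), bound by ATF6 with NF-Y, was present in 4 of the 10 chaperone genes that had a window. It was also present in 25 of all 27305 genes with a window (0.0916%), in 13 of 7111 listed genes (0.183%) and in 2 of 89 other genes of these pathways (2.25%). The ER stress element II (ATTGGNCCACG) was present in 2 of the 10, in 19 of all genes (0.0696%), in 10 of the listed genes (0.141%) and in 0 of the 89. The UPR element core (TGACGTGG), which can overlap the element II, was found in 1 of the 10, in 253 of all genes (0.927%) and in 84 of the listed genes (1.18%). Of the 89 other pathway genes, 7 had it (7.87%), a share near that of the chaperones. None of the 10 ATF4 and target genes held any of these motifs. A match is a description of the sequence and not a measured site. CALR, which was lower in both lines and held an ER stress element from 225 to 207 bases before the start, is not shown. Shown are other chaperones that were lower in both lines, with matches on either strand in capitals, for HSPA5 at chr9:125241344-125241593, minus strand, HSP90B1 at chr12:103930160-103930409, plus strand, PDIA6 at chr2:10812786-10813035, minus strand, SDF2L1 at chr22:21642052-21642301, plus strand, and HYOU1 at chr11:119057206-119057455, minus strand. The distal run of capitals in HYOU1 joins a UPR element core and an ER stress element II.
HSPA5: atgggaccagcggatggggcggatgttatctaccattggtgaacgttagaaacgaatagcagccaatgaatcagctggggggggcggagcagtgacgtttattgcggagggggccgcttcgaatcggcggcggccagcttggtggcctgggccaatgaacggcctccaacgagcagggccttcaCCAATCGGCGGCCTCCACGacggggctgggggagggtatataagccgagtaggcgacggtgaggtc
HSP90B1: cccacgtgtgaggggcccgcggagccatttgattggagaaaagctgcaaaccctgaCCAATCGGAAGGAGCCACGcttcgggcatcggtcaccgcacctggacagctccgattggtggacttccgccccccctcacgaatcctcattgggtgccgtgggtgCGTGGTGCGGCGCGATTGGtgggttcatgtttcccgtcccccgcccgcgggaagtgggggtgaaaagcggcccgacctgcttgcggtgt
PDIA6: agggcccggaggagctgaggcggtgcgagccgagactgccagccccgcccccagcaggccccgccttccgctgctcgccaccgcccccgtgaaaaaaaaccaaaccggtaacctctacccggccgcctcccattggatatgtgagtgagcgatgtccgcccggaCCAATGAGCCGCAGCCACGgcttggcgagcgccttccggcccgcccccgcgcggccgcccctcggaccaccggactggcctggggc
SDF2L1: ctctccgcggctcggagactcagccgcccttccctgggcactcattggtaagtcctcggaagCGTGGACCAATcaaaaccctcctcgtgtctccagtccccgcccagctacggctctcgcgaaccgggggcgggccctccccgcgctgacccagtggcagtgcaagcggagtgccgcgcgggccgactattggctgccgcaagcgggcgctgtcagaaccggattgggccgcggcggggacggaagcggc
HYOU1: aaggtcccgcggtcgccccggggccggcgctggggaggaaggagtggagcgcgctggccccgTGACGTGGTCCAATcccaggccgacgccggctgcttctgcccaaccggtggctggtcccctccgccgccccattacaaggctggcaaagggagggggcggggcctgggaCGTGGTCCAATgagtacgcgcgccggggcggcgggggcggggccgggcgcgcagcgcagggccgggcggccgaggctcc

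**Figure D3:**
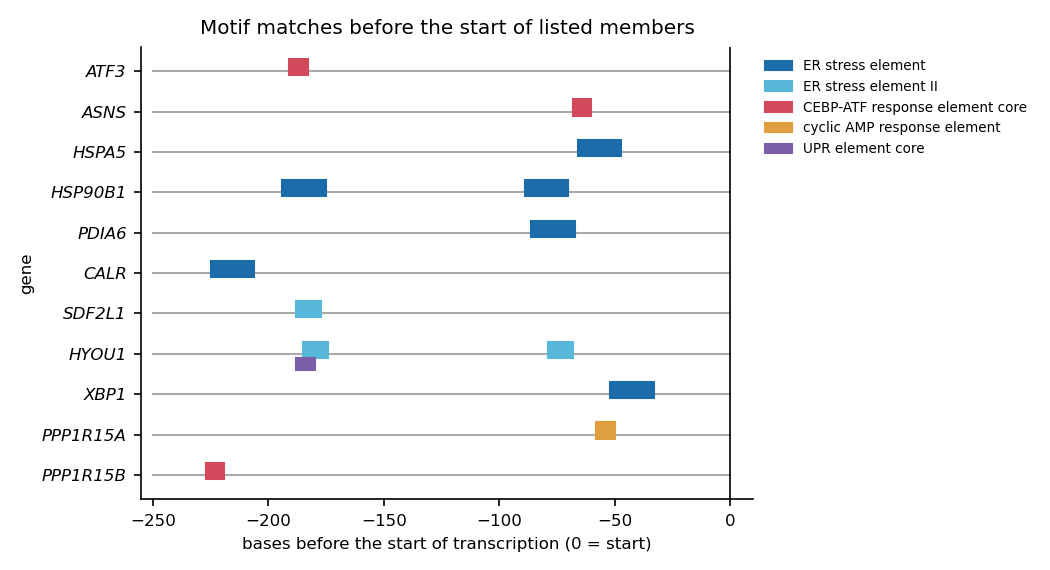
Motif matches (coloured boxes, to scale) in the 250 bases before the start of each listed member with a match, with the distance from the start in bases on the horizontal axis. ER stress elements lie in chaperone genes and in XBP1, from 225 to 34 bases before the start.

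ERAD was represented by 3 of 10 named genes, since HERPUD1, SYVN1, EDEM1, EDEM3, DERL1, DERL3 and OS9 were not on the list. SEL1L (gene ID 6400, chr14:81471547-81533853), the adaptor of the ERAD ubiquitin ligase, read 12.8, 12.4 and 12.9 after siFASRL and 18.5, 16.7 and 17.3 after siNC in HepG2, and 11.3, 11.1 and 11.4 against 13.3, 11.1 and 11.9 in LM3. Its groups were apart in HepG2 (-0.43 ± 0.0575, adjusted p = 6.67e-05) and overlapped in LM3 (-0.09 ± 0.0665, adjusted p = 0.239). The mannosidase EDEM2, which marks glycoproteins for degradation, was lower in both lines (-0.58 and -0.61, adjusted p = 2.43e-05 and 5.81e-05). So was DERL2, a channel component (-0.37 and -0.26, adjusted p = 0.00048 and 0.00427), although its LM3 call was lost with quantile normalization (-0.09, adjusted p = 0.26). Together with the chaperones, 13 of 14 listed genes of folding and ERAD were lower in HepG2 (92.9%, against 44.3% of all genes) and 12 of 14 in LM3 (85.7%, against 43.5%), with medians of -0.57 and -0.72. The ATF4 group, in comparison, had 8 of 13 (61.5%) and 7 of 12 (58.3%) genes lower, with medians of -0.32 and -0.37. These medians moved both ways with the settings given for that group, to -0.42 and -0.21 in HepG2 and to -0.47 and -0.20 in LM3. Centring on the near-empty range, which gave the -0.21, also moved the HepG2 chaperone median, from -0.58 to -0.47. The translocon genes SEC61A1, the channel subunit, and SSR1, a subunit of the associated TRAP complex, were lower in both lines, from -0.49 to -0.33 in HepG2 and from -0.55 to -0.37 in LM3.

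Sensors, effectors and feedback genes had 6 of 8 members listed, with 2 higher and 2 lower in HepG2 (33.3% each, against 44.8% and 44.3% of all genes). In LM3, 2 were higher (33.3%, against 33.9%) and 3 lower (50%, against 43.5%). PPP1R15A (gene ID 23645, chr19:48872421-48876058) encodes GADD34, the stress-induced subunit that directs a phosphatase to eIF2 and so ends the translational arrest. It read 53.2, 44.9 and 47.3 after siFASRL and 14.2, 13.8 and 12.4 after siNC in HepG2, and 37.5, 33.6 and 33.2 against 10.2, 8.84 and 8.42 in LM3. This was the highest fold change of any listed member in each line, 1.77 ± 0.0771 (adjusted p = 8.31e-08) for HepG2 and 1.82 ± 0.0792 (adjusted p = 4.71e-07) for LM3, and the sole member past the stricter threshold in both. Its constitutive counterpart PPP1R15B was higher as well (0.47 and 0.38, adjusted p = 2.88e-05 and 0.000128).

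XBP1 (gene ID 7494, chr22:28794560-28800569), the factor activated by IRE1 splicing, read 58.7, 58.8 and 59.2 after siFASRL and 108, 109.7 and 99.1 after siNC in HepG2, and 33.3, 34.9 and 33.7 against 38.5, 43.5 and 42.3 in LM3. All siFASRL libraries were below all siNC libraries of their line, by 0.83 and 0.28 on the log2 scale (adjusted p = 1.09e-06 and 0.00252). Values per gene do not separate the spliced from the unspliced form. EIF2AK4 (gene ID 440275, chr15:39934115-40035591), which encodes the amino acid sensor GCN2, read 15.3, 15.3 and 15.3 against 14.2, 13.8 and 14.5 in HepG2 and 10.7, 11.1 and 10.2 against 16.2, 15.7 and 15.8 in LM3. In HepG2 it was not called (0.10 ± 0.0515, adjusted p = 0.0783) although no libraries overlapped, and it was called there with quantile normalization, with a joint fit of all libraries and when centred on the near-empty range (adjusted p = 0.0399, 0.0387 and 0.0028). In LM3 it was lower (-0.53 ± 0.0509, adjusted p = 2.18e-05). WFS1, an ER membrane protein that restrains ATF6, was lower in both lines (-0.70 and -0.84, adjusted p = 7.31e-06 and 4.17e-05). CREBRF, a regulator of the response that turns over LUMAN, had changes of 0.14 and 0.19 and was not called in either line (adjusted p = 0.0532 and 0.0912). Several other settings called CREBRF higher, quantile normalization with changes of 0.45 and 0.60 (adjusted p = 6.50e-05 and 0.000680) among them.

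The windows of XBP1 and PPP1R15A are shown because these members moved in opposite directions. XBP1 at chr22:28800570-28800819, minus strand held an ER stress element. PPP1R15A at chr19:48872171-48872420, plus strand held a cyclic AMP response element (TGACGTCA), which 1 of 31 members (3.23%), 285 of 7111 listed genes (4.01%) and 614 of 27305 genes with a window (2.25%) had. The matches are in capitals.
XBP1: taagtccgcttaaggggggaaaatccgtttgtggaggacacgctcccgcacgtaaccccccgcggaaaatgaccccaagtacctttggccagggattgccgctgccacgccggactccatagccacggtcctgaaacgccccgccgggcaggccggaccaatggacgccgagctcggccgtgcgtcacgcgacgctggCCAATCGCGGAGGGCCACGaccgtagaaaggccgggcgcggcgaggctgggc
PPP1R15A: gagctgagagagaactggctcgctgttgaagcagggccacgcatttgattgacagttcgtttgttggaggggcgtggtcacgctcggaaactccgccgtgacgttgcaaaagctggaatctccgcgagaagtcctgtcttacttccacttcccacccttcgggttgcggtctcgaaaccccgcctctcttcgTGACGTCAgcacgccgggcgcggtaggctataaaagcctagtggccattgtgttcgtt

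Whether a member responded differently in the lines was tested by the interaction, the LM3 effect minus the HepG2 effect, over all 12 libraries. It was called positive for 5 of 35 members (14.3%, against 19.5% of 8285 genes) and negative for 10 (28.6%, against 27.2%). That background included genes that passed the filter through 1 line only, and 7349 genes were tested in both lines. ALB, at most 0.62 in LM3, counted as positive (1.45) on its HepG2 change. No difference between the members and all genes is therefore read from these shares. Without LM3 siNC replicate 1 the member counts were 6 and 12, PSPH (-0.28, adjusted p = 0.0362), HSP90B1 (0.19, adjusted p = 0.0494) and SDF2L1 being called as well. Over all genes the counts without that library rose too, to 1669 positive and 2380 negative of 8260 tested. Calls were gained in other settings too, HSP90B1 with median-of-ratios scaling (0.21, adjusted p = 0.049). PSPH was called without HepG2 siFASRL replicate 1 (-0.30, adjusted p = 0.0245) and DDIT3 without LM3 siFASRL replicate 2 (-0.30, adjusted p = 0.0268). With median-of-ratios scaling, which moved the LM3 median of all genes by 0.109, the split over all genes turned from 1612 positive and 2256 negative to 1986 and 1783. Among the members the largest differences were in SESN2, -1.45 ± 0.0922 (adjusted p = 8.01e-08), and STC2, 1.12 ± 0.0933 (adjusted p = 7.40e-07), with opposite signs in the lines. TRIB3 followed with -0.90 ± 0.191 (adjusted p = 0.00189), its rise in HepG2 having no counterpart of that size in LM3. EIF2AK4 differed by -0.64 ± 0.0626 (adjusted p = 3.37e-06). ATF3 rose more in LM3 (0.63 ± 0.101, adjusted p = 0.000233) and ATF4 more in HepG2 (-0.35 ± 0.0772, adjusted p = 0.00243).

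Other differences between the lines were in size and not in direction. XBP1 fell less in LM3, 0.55 ± 0.0787 (adjusted p = 8.99e-05), as did PDIA6, 0.44 ± 0.0676 (adjusted p = 0.000151). SEL1L differed by 0.34 ± 0.0855 (adjusted p = 0.00521). CALR fell more in LM3, -0.43 ± 0.0641 (adjusted p = 0.000137), and so did HSPA5, -0.37 ± 0.086 (adjusted p = 0.0037). PSAT1, HYOU1, PDIA4 and ASNS also fell more in LM3, with differences from -0.52 to -0.27. Those of PDIA4 and ASNS were lost with quantile normalization (-0.15 and -0.12, adjusted p = 0.0895 and 0.212). For SDF2L1 the difference was -0.45 ± 0.269 (adjusted p = 0.188) with all libraries and -0.68 (adjusted p = 0.0193) without LM3 siNC replicate 1. For PHGDH the difference of 0.30 was not called (adjusted p = 0.065), but it was called with median-of-ratios scaling (0.33, adjusted p = 0.0454), the replicate block (0.30, adjusted p = 0.0259) and quantile normalization (0.81, adjusted p = 0.000154). It was also called without HepG2 siFASRL replicate 1 (0.37, adjusted p = 0.0294) and without LM3 siNC replicate 3 (0.38, adjusted p = 0.0215). As shares of the siNC mean, however, PHGDH after siFASRL was 42.9% in HepG2 and 40.1% in LM3, and with 0.1 added in place of 1 (pseudocount 0.1) the PHGDH interaction, LM3 effect minus HepG2 effect, was -0.04 (adjusted p = 0.882). No smaller fall in LM3 is therefore read from it. The change of PPP1R15A was nearly the same in the lines, with a difference of 0.04 and a 95% interval from -0.21 to 0.30.

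**Figure D4:**
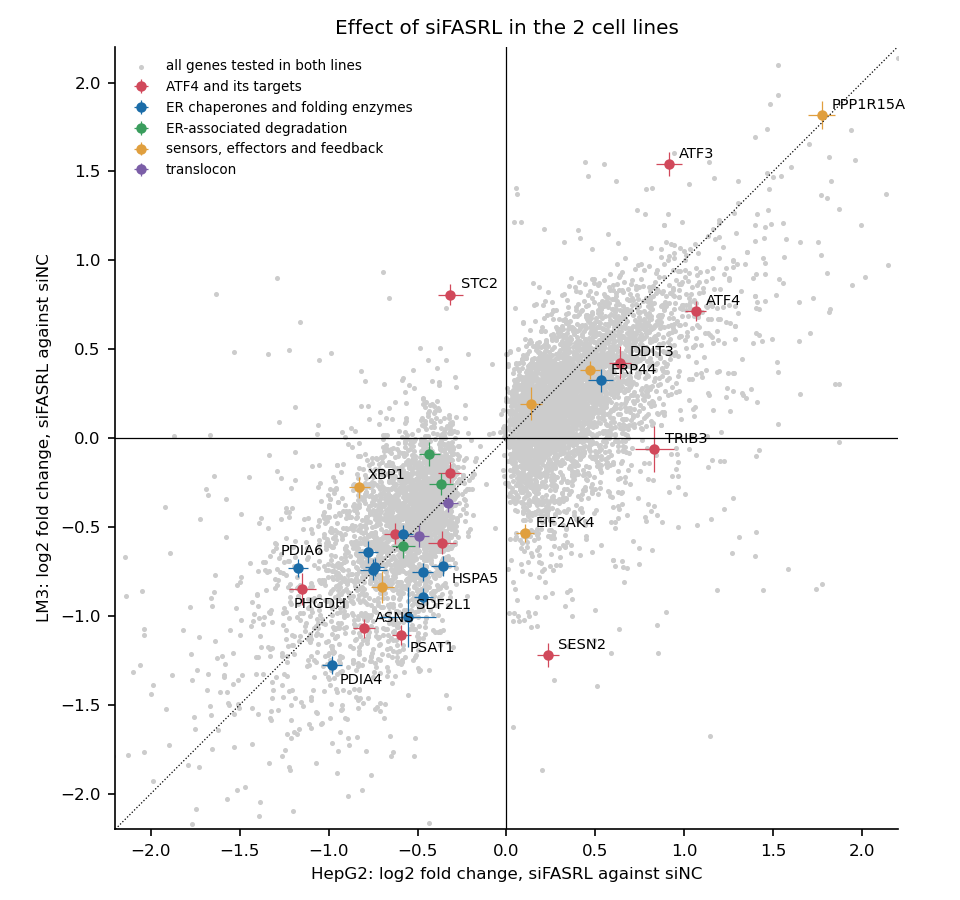
Log2 fold change after siFASRL in HepG2 (horizontal) and LM3 (vertical), with members coloured by role (bars, SE, n = 3 per group), all genes tested in both lines in grey and equal effects on the dotted line. Genes with larger effects are outside the plot. Most members lie in the lower left quadrant, SESN2 at 0.23 and -1.22 and STC2 at -0.32 and 0.81 lie in the opposing quadrants, and the near-empty strip left of 0 is the range that held almost no listed genes in HepG2.

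Of 155 other genes of these pathways, 109 were listed. In HepG2, 54 of 108 tested were higher (50%, against 44.8% of all genes) and 42 lower (38.9%, against 44.3%), with a median of 0.16. In LM3, 36 of 108 were higher (33.3%, against 33.9%) and 46 lower (42.6%, against 43.5%), with a median of -0.03. These shares were close to those of all genes. Other ATF4 targets, with 32 of 47 listed, had 20 higher (62.5%) and 8 lower (25%) in HepG2 but 10 higher (31.2%) and 14 lower (43.8%) in LM3, with medians of 0.22 and -0.10. Their interaction was negative in 19 of 32 (59.4%, against 27.2% of all genes) and positive in 2 (6.25%, against 19.5%). The shares of all genes include genes that passed the filter through 1 line only. ATF5, a stress-induced relative of ATF4, read 23.2, 19.8 and 20.4 after siFASRL and 10.01, 8.80 and 9.56 after siNC in HepG2, and 21.7, 21.1 and 19.4 against 11.2, 8.70 and 8.91 in LM3, higher in both (1.08 and 1.04). CTH, the enzyme that makes cysteine from cystathionine, read 12.1, 11.9 and 12.8 against 7.29, 6.17 and 7.37 in HepG2 and 8.56, 8.56 and 7.57 against 14.4, 13.4 and 11.7 in LM3. It rose in HepG2 (0.75) and fell in LM3 (-0.62), an interaction of -1.36 ± 0.113 (adjusted p = 7.32e-07). TXNIP, an inhibitor of thioredoxin, was not called in HepG2 (0.06), where the groups overlapped, and rose by 1.37 in LM3 (1.31 ± 0.0787, adjusted p = 4.73e-08 for the difference). NDRG1, a stress-responsive gene, was not called in HepG2 (0.13, adjusted p = 0.0807) and fell in LM3 (-0.77), a difference of -0.90 ± 0.0955 (adjusted p = 7.17e-06).

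Other ER folding and oxidation genes, with 22 of 29 listed, had 7 higher (31.8%, against 44.8% of all genes) and 14 lower (63.6%, against 44.3%) in HepG2. In LM3, 6 of 21 were higher (28.6%, against 33.9%) and 12 lower (57.1%, against 43.5%), and the medians were -0.39 and -0.26. KDELR3, a receptor that returns escaped ER proteins, fell most, with 8.57, 8.01 and 8.64 against 30.6, 29.3 and 30.6 in HepG2 and 7.24, 7.74 and 7.82 against 32.05, 28.6 and 29.5 in LM3. Its log2 changes were -1.73 ± 0.0557 (adjusted p = 2.56e-08) and -1.85 ± 0.0599 (adjusted p = 1.95e-07). GANAB, the catalytic subunit of the glucosidase that trims new glycans, went the other way, with 125, 115 and 117 against 41.98, 40.8 and 41.3 and 167, 172 and 169 against 63.5, 59.3 and 58.7, changes of 1.5 ± 0.0558 (adjusted p = 4.16e-08) and 1.47 ± 0.0518 (adjusted p = 2.34e-07). Its partner PRKCSH rose more in LM3 (0.85) than in HepG2 (0.18), a difference of 0.67 ± 0.08 (adjusted p = 1.99e-05). The ER oxidase ERO1A fell in HepG2 (-0.45) and differed between the lines (0.46 ± 0.0961, adjusted p = 0.0016). Its relative ERO1B reached 1 only in the HepG2 siNC libraries (1.68, 1.42 and 1.69, against 0.48, 0.61 and 0.57 after siFASRL) and did not exceed 0.09 in LM3, so no difference between the lines was read from it.

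Other ERAD genes, with 18 of 23 listed, had 7 higher (38.9%, against 44.8% of all genes) and 9 lower (50%, against 44.3%) in HepG2. In LM3, 5 were higher (27.8%, against 33.9%) and 9 lower (50%, against 43.5%), shares close to those of all genes in both lines (medians -0.09 and -0.13). AUP1, which recruits ubiquitin enzymes to the ER membrane, was higher in both, with 125, 115 and 115 against 50.2, 47.1 and 53.6 in HepG2 and 105, 104.2 and 98.9 against 50.6, 47.4 and 46.4 in LM3 (1.22 and 1.08). FAM8A1, a cofactor of the ERAD ligase, fell more in LM3 (-1.26) than in HepG2 (-0.61). The ligase RNF139 fell less in LM3 (0.38 for the difference), and the interaction of SELENOK was -0.36. Sensors and branches outside the members, with 18 of 23 listed, had 11 higher and 5 lower in each line, 64.7% and 29.4% in HepG2 (all genes 44.8% and 44.3%) and 61.1% and 27.8% in LM3 (all genes 33.9% and 43.5%), with medians of 0.45 and 0.28. The membrane-bound factor CREB3 rose by 0.95 in HepG2 and 0.31 in LM3 (-0.64 ± 0.119, adjusted p = 0.000697). Its relative CREB3L2 had an interaction of -0.45 ± 0.0816 (adjusted p = 0.000619). CREB3L1 did not exceed 0.58 in HepG2, so the lines were not compared for it. Genes of the translocon and ER entry, with 19 of 33 listed, had 9 higher (47.4%, against 44.8%) and 6 lower (31.6%, against 44.3%) in HepG2, and 4 (21.1%, against 33.9%) and 6 (31.6%, against 43.5%) in LM3, with medians of 0.14 and -0.02. Among them the signal recognition subunit SRP19, the coat protein SEC24D and the signal peptidase subunit SPCS3 differed most between the lines (-0.70, -0.57 and 0.47).

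**Figure D5:**
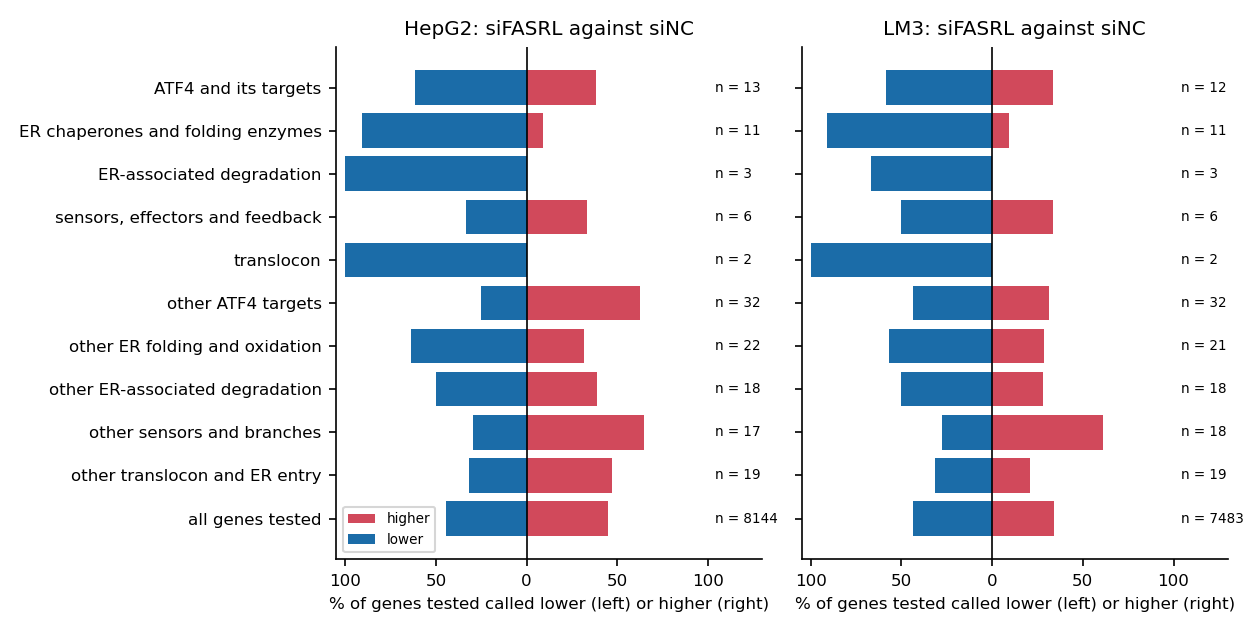
Percent of the tested genes of each list called higher (right, red) or lower (left, blue) after siFASRL in each line, with the number tested beside each bar. Chaperones, ERAD and translocon members lie to the left of all genes tested in both lines, while other ATF4 targets lie further to the right in HepG2, at 62.5% higher against 31.2% in LM3.

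Some members share sequence with other genes, so their values carry an uncertainty that the replicates do not show. RefSeq names pseudogenes of ATF4 (4), ASNS (5), PSAT1 (4), MTHFD2 (7), PDIA3 (2), SSR1 (2), PSPH (1), HSPA5 (1) and XBP1 (1). By the methods of the study, reads were aligned to a reference set of coding genes for the expression values. Where reads of these pseudogenes were counted was not tested. Exons of DDIT3, SHMT2, MTHFD2, PDIA3, PDIA6, P4HB, CALR, HYOU1, SEC61A1 and SSR1 overlap exons on the opposite strand in GENCODE. On the same strand, exons are shared by ASNS with AC079781.5 (1985 bases), DDIT3 with AC022506.1 (105 bases) and HSP90B1 with MIR3652 (131 bases), and counting by strand does not separate these. Whether counting used the strand is not given in the sources used here, so reads of such pairs may not be told apart.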

How the data were processed

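RNA-seq values of 12 libraries were used, 3 each for HepG2 and LM3 with siFASRL or siNC. The authors filtered reads with SOAPnuke, mapped them with HISAT2 and Bowtie2, and estimated expression with RSEM. The deposited signal values are normalized expression with 2 decimals, and whether they are FPKM or TPM is not given in the sources used here. Values up to 0.1 took only 10 different levels, too coarse to recover whole reads, so depth is unknown. The labels name hg19, while the chromosome accessions in the tables are those of GRCh38. Of 8842 gene identifiers 8790 matched RefSeq, 17 symbols turned into dates were restored, and 6 repeated LM3 columns were identical and used once.

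From these, log2(value + 1) was fitted with limma 3.58.1 in R 4.3.3 for genes reaching 1 in 3 or more libraries of the fit, each line alone and all 12 libraries for the interaction, with Benjamini-Hochberg adjustment over all genes. The 48 h come from the methods of the study and not from the labels. Count models were not used because the values are not counts. Named with all values were 10 core genes where listed, members past the stricter threshold in either line or called in opposite directions, and per role group the 2 with the largest called interaction. Of other pathway genes, those past that threshold in both lines and the 3 per list with the largest interaction were named. Members and lists were chosen with earlier results of these data known. Motifs were searched with Python 3.11.15, and figures drawn with matplotlib 3.10.9. Protein motifs for ER retrieval were not analysed here. Alternatives were the pseudocount, filter, scaling, variance trend, replicate block, a joint fit, centring, motif letters and leaving out each library.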

Additional observations from a re-analysis of the deposited data

Results flagged for a closer look

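For 15 members the effect of siFASRL differed between the lines by limma's interaction test (adjusted p under 0.05), given as log2 LM3 change less HepG2 change. The difference was positive for STC2 (1.12), ATF3 (0.63), XBP1 (0.55), PDIA6 (0.44) and SEL1L (0.34). It was negative for SESN2 (-1.45), TRIB3 (-0.90), EIF2AK4 (-0.64), PSAT1 (-0.52), CALR (-0.43), HSPA5 (-0.37), ATF4 (-0.35), PDIA4 (-0.29), HYOU1 (-0.28) and ASNS (-0.27). Positive differences thus made up 14.3% of the members and negative ones 28.6%, against 19.5% and 27.2% of all 8285 genes tested. These 8285 included genes that passed the filter through 1 line only, so no difference from them is read. Of the 15, SESN2 and STC2 changed in opposite directions, and TRIB3, SEL1L and EIF2AK4 were called in 1 line only. Why the lines differed was not tested.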

How the results depend on the processing

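No member turned its called direction under any alternative run. Of the values for single members under alternatives, 1800 kept their side of the threshold, 26 gained a call and 9 lost it. In HepG2 the medians of the ATF4 group and of the chaperones, -0.32 and -0.58, became -0.39 and -0.67 with quantile normalization, -0.42 and -0.68 with the median of all genes set to 0, and -0.21 and -0.47 centred on the near-empty range. Centring on the median left 1 HepG2 member past the stricter threshold and higher. In LM3 the ATF4 group's median, -0.37, became -0.47 with no filter, -0.20 with a filter at 5 and -0.25 with median-of-ratios scaling. The LM3 chaperone median, -0.73, became -0.84 with quantile normalization, -0.61 with median-of-ratios scaling and -0.67 with centring. Members lower past the stricter threshold in LM3 numbered 3 with quantile normalization and 2 with median-of-ratios scaling, against 5. The interaction medians, -0.21 in both groups, became -0.11 and -0.15 with quantile normalization, and that of the chaperones -0.14 with median-of-ratios scaling. Leaving out 1 library at a time, the medians ranged from -0.38 to -0.31 (ATF4 group) and -0.66 to -0.55 (chaperones) in HepG2, and from -0.26 to -0.14 and -0.25 to -0.15 for the interaction. The cause of these shifts was not tested. The CEBP-ATF core spelled TGATGCAA was in 0 ATF4 and target genes, against 2, and in 1 member, against 3, its letters being narrower. Deviations of same-numbered libraries correlated at 0.38, 0.438 and -0.249 in HepG2 and -0.079, 0.167 and -0.217 in LM3, so replicate numbers did not pair every library. In HepG2, siFASRL replicate 1 also correlated with siNC replicate 3 (0.341), and siFASRL replicate 3 with siNC replicate 2 (0.339). The remaining HepG2 pairs of unlike number ranged from -0.51 to -0.227. Libraries of the 2 HepG2 groups thus shared deviations that replicate number does not describe, and their source was not tested. With replicate number as a block, 8 members were higher and 25 lower in HepG2, and 8 and 24 in LM3. All genes then had 3743 higher and 3613 lower of 8144 in HepG2, and 2478 and 3213 of 7483 in LM3. The search for ER retrieval motifs in proteins was not run.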
